A study of Mus musculus with 11 samples.

Results

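The endoplasmic reticulum (ER) stress response genes studied here are 35 genes that encode the chaperones, folding enzymes, degradation machinery, sensors and transcription factors of the unfolded protein response. They were found by symbol, as 36 of the 32287 rows of the gene table, since Ddit3 is entered under 2 Ensembl identifiers. The members were chosen by function with earlier results of these data in view, and the list was selected on UMI levels in pericytes of the 2 genotypes, in which Manf and Sdf2l1 ranked high. The genotype values in pericytes and the differences of pericytes from other cell types are therefore given as a description, and no test of the members is read there, while the values in SMC, EC and microglia and the differences among these types were tested.

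Single cells from the brain vessels of 11 untreated mice were sequenced, 1 library per mouse, and the question was whether genotype changed these genes in the vessel wall, where mutated NOTCH3 accumulates in CADASIL, a small vessel disease. CADASIL mice (R182C-TgN3, 3 at 6 months and 3 at 9 months) express human NOTCH3 bearing R182C from a transgene, and control mice (WT-TgN3, 3 at 6 months and 2 at 9 months) carry wild-type human NOTCH3, so that a human NOTCH3 transgene and the intact mouse Notch3 gene are shared by all groups. The sample titles name a different transgenic line for each genotype. Mice of both sexes were used, and the labels give 4 batches, none of which held both ages, so age and batch cannot be told apart. Vessel fragments were captured with antibodies to CD31, an endothelial protein, before they were digested into cells, which favours endothelial cells (EC) over the smooth muscle cells (SMC) and pericytes on the vessel wall.

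Of 66658 barcodes, 61625 were kept and 49256 met a marker gate for 1 of 4 cell types, namely 33250 EC, 13707 microglia, 1825 SMC and 474 pericytes. Each library held 17550806 to 64215050 unique molecular identifiers (UMIs), and UMIs were summed per mouse and type and expressed as counts per 1000000 UMIs (CPM). EC sums were the deepest, at 10829510 to 28081235 UMIs per mouse, and pericyte sums the shallowest, at 43939 to 370320 UMIs from 18 to 117 cells. A control mouse of 9 months (mouse 2) with 18 pericytes fell under the minimum of 20 cells, which left 6 CADASIL and 4 control mice for pericytes. All 8 markers of the own type were detected in every sum that was used, for example Vtn in pericytes, Acta2 in SMC and Flt1 in EC. A total of 966 barcodes occurred in more than 1 library, which covered 1195 gated cells, and the results without those cells are given where they matter.

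Proteins that enter the secretory pathway, among them NOTCH3, fold in the ER with the help of lumenal chaperones, calnexin and calreticulin, and disulfide isomerases. When unfolded protein builds up, the membrane sensors IRE1 (Ern1), PERK (Eif2ak3) and ATF6 (Atf6) are activated. IRE1 splices the Xbp1 transcript, ATF6 is cleaved to a transcription factor, and PERK slows translation while favouring that of ATF4, which induces Ddit3 (CHOP), Trib3, Chac1 and Ppp1r15a. Spliced and unspliced Xbp1 cannot be separated in these gene counts, so only the total transcript was measured.

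ATF6 and XBP1 act at the ER stress response element (ERSE) in the promoters of many of these genes, and the matches are shown to place the members by their regulation. The motif, CCAAT and CCACG with 9 bases of any kind between them, was searched on both strands in the 250 bases before each RefSeq gene start (GRCm38.p6, the patch release of mm10). It was found in 37 of 32851 promoters (0.113%) and in the promoters of 9 of the 31 members that had a promoter sequence, namely Calr, Canx, Creld2, Derl3, Dnajc3, Hsp90b1, Hspa5, Pdia6 and Syvn1. The members were chosen by function as genes of this response, so these shares are a description and no enrichment is read from them. A match describes letters and does not show that a factor binds. A few flanking bases are printed on each side of a match, the strand is that of the gene, and capitals mark the motif. Hspa5 (BiP, the main lumenal chaperone) held its match at chr2:34772020-34772048, 65 to 47 bases before the RefSeq start (the GENCODE gene begins upstream of the window, which then lies inside it), and Hsp90b1 (GRP94) held 2 matches, at chr10:86705633-86705661 and, inverted, at chr10:86705528-86705556. Of the other windows, those printed lay at chr12:17266486-17266514 (Pdia6), chr14:118937822-118937850 (Dnajc3), chr11:50325795-50325823 (Canx), chr8:84847070-84847098 (Calr, inverted) and chr15:88819515-88819543 (Creld2, inverted).
Hspa5: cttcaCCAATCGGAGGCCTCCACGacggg
Hsp90b1, first: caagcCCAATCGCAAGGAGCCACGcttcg
Hsp90b1, second: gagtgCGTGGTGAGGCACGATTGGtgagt
Pdia6: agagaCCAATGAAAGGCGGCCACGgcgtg
Dnajc3: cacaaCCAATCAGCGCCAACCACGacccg
Canx: attgaCCAATCACCACGCTCCACGaagaa
Calr: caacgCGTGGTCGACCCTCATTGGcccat
Creld2: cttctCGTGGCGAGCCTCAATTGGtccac

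The related ERSE-II motif, ATTGG and CCACG with 1 base between them, was in 10 of 32851 promoters (0.0304%), and of the members only Herpud1, an ER membrane protein of the degradation machinery, held it, at chr8:94386372-94386392. Neither the UPRE motif TGACGTGG (0.563% of promoters) nor the ATF4-type motif TGATGNAAT (0.816%) was found in these windows of the members. Sdf2l1, a partner of the chaperone cycle in the ER lumen, held none of the 4 motifs in its window of 250 bases (chr16:17132384-17132633, minus strand), which is printed because the list was chosen with this member in view.
Herpud1: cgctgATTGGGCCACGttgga
Sdf2l1: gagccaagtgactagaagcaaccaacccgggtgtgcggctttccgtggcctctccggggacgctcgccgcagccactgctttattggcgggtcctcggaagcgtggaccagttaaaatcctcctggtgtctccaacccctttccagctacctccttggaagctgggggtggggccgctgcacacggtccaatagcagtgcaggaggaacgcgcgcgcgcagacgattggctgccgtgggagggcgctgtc

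By the GENCODE annotation of mm10, Hspa5 (ENSMUSG00000026864) lies at chr2:34771970-34777547, Manf (ENSMUSG00000032575) at chr9:106838312-106891979 and Sdf2l1 (ENSMUSG00000022769) at chr16:17130138-17132383, and all are protein-coding. Manf overlaps Rbm15b on the same strand, Hsp90b1 overlaps Gm15344, and the rows of Ddit3 (chr10:127290774-127296288 and chr10:127290829-127293753) overlap each other. Reads that lie in both genes of such a pair cannot be assigned with certainty, so the levels of Manf, Hsp90b1 and Ddit3 are less certain. All 15405 UMIs of Ddit3 in the gated cells were in its longer row and 0 in the other.

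The transgene itself differed in level between the genotypes. In SMC, human NOTCH3 was at 251 ± 62.7 CPM (SD, n = 6) in CADASIL mice and at 40.5 ± 24.8 CPM (n = 5) in control mice, and the groups did not overlap (log2 fold change 2.47, SE 0.26, edgeR quasi-likelihood test, adjusted p = 2.22e-05). In pericytes it was at 1243 ± 356 CPM (n = 6) and 427 ± 28.9 CPM (n = 4), again without overlap. Mouse Notch3 was at 607 ± 83.1 and 658 ± 45.7 CPM in SMC and at 1122 ± 202 and 1086 ± 78.4 CPM in pericytes. Hence the R182C variant and a higher transgene transcript level came together in these mice, and their parts in any genotype difference cannot be told apart.

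**Figure D1:**
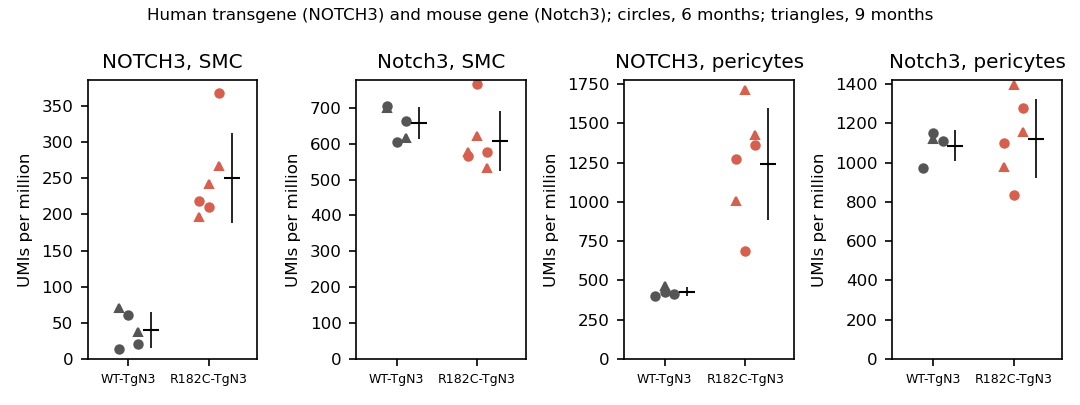
Human NOTCH3 transgene and mouse Notch3 levels (CPM, linear axes from 0) in SMC and pericytes of each mouse, with the mean and SD beside the points. NOTCH3 was higher in every CADASIL mouse than in every control mouse in both cell types, while the Notch3 values of the genotypes overlapped.

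Across cell types, microglia had the highest mean level of 21 of the 35 members, pericytes of 10, EC of 3 and SMC of 1. In control mice alone, which leaves out the pericyte levels of CADASIL mice that helped to choose the list, these numbers were 24, 5, 5 and 1. Among the lumenal chaperones, Hspa5 was at 883, 1156 and 2259 CPM (lowest, median and highest of 11 mice) in microglia, at 281, 349 and 432 CPM in EC, and at 127, 164 and 298 CPM in SMC. In pericytes Hspa5 ranged from 358 to 1506 CPM over 10 mice. Every microglia sum was above every EC and SMC sum. Manf, a secreted ER-resident factor, was at 133, 199 and 241 CPM in microglia, 74.9, 88.9 and 102 CPM in EC and 40.1, 54.6 and 74.5 CPM in SMC. Sdf2l1 was at 62.9, 84.3 and 113 CPM in microglia but at most at 10.7 CPM in any EC sum and 7.75 CPM in any SMC sum.

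**Figure D2:**
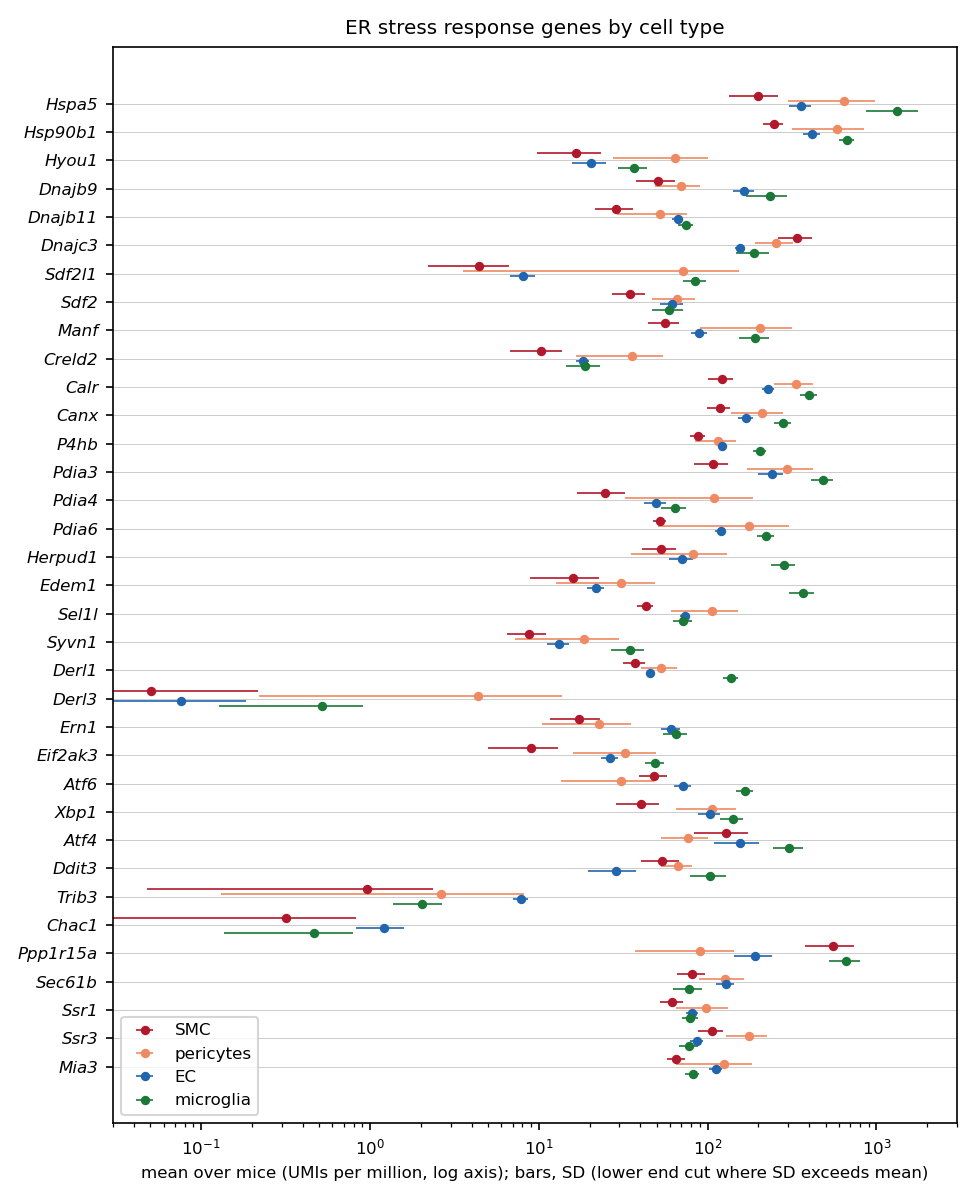
Mean level of each of the 35 members in the 4 cell types (CPM on a log axis), with the SD over 11 mice (10 for pericytes). Points at a mean of 0 (Chac1 in pericytes) are not drawn, lower bars are shortened where the SD exceeds the mean, and Edem1, Hspa5 and Sdf2l1 lie higher in microglia than in SMC.

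Differences between cell types were fitted with the mouse as a block over 11843 genes, of which 33 were members, and a gene was called at an adjusted p under 0.05 and a log2 fold change of at least 1. Between microglia and EC, 16 members were called higher in microglia and 1 lower, where 22.7% of all genes were called higher and 22% lower. The median log2 fold change of the members was 0.97, and that of all genes 0.04. Edem1, which helps to hand misfolded glycoproteins to degradation, led with a log2 fold change of 4.27 (SE 0.09). It was at 235 to 469 CPM in microglia and at 17.5 to 26.1 CPM in EC, so that the types did not overlap. Sdf2l1 (3.60, SE 0.11), Herpud1 (2.23, SE 0.08) and Ddit3 (2.10, SE 0.08) followed, and all 16 were higher in microglia than in EC of the same mouse in 11 of 11 mice (largest adjusted p = 6.39e-13, edgeR). They comprised 4 of 10 lumenal chaperones (Hspa5, Hyou1, Manf and Sdf2l1), 3 of 6 lectin chaperones and disulfide isomerases (Calr, Pdia3 and Pdia6), 4 of 5 degradation genes, 4 of 6 sensors and factors (Eif2ak3, Atf6, Atf4 and Ddit3), and Ppp1r15a. None of the 4 translocon and export genes (Sec61b, Ssr1, Ssr3, Mia3) was called. Trib3, an inhibitor of ATF4 and CHOP, was lower in microglia (log2 fold change -1.78, SE 0.17), with 1.36 to 3.53 CPM in microglia and 6.46 to 9.15 CPM in EC.

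Between SMC and EC, members were called in both directions. In the fit of all mice with the main gate, they were called in neither direction more often than other genes. Of 33 members, 5 were called lower in SMC, namely Trib3 (-3.01, SE 0.35), Ern1 (-1.54, SE 0.11), Dnajb9 (-1.48, SE 0.08), Eif2ak3 (-1.45, SE 0.14) and Xbp1 (-1.13, SE 0.10), beside 19.5% of all genes (largest adjusted p = 1.32e-10, edgeR). Ern1 was at 6.32, 18.1 and 27.1 CPM in SMC and at 47.3, 61.6 and 76.1 CPM in EC. Dnajb9, a co-chaperone of BiP that holds IRE1 in check, and Xbp1, the target of IRE1, were lower in 11 of 11 mice each. The count of 5 was 8 with a stricter gate and 8 in the control mice alone. The share of all genes called lower in those fits is not given, so these counts are not compared with other genes. The median log2 fold change was -0.52 over the 33 members and -0.06 over all genes. Ppp1r15a (1.75, SE 0.09), the phosphatase subunit that restores translation after PERK, Dnajc3 (1.34, SE 0.08), an inhibitor of PERK and co-chaperone, and Ddit3 (1.16, SE 0.11) were called higher in SMC, in 11 of 11 mice each, beside 15.7% of all genes (largest adjusted p = 1.66e-13, edgeR). Against microglia, 23 members were called lower in SMC and none higher, beside 27.6% and 23% of all genes. Edem1 (-4.64, SE 0.12), Sdf2l1 (-4.21, SE 0.19), Hspa5 (-2.70, SE 0.14) and Eif2ak3 (-2.56, SE 0.14) showed the largest differences there.

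Differences that involve pericytes draw on the pericyte levels behind the choice of the list, so they are given as a description, with no p and nothing read from the background beside them. Members are listed where the log2 fold change is at least 1 in size, without regard to a p. Against EC, 6 of 33 members were lower in pericytes by that much, namely Trib3 (-2.79, SE 0.79), Ern1 (-1.75, SE 0.22), Atf6 (-1.57, SE 0.18), Dnajb9 (-1.53, SE 0.14), Ppp1r15a (-1.31, SE 0.15) and Atf4 (-1.27, SE 0.13), beside 23% of all genes. The value of Trib3 rests on 2 UMIs in all pericytes. Sdf2l1 (2.63, SE 0.30) and Hyou1 (1.22, SE 0.29), a large chaperone of the BiP family, were higher by that much, beside 14.1% of all genes. The contrasts were also fitted in the control mice alone, an alternative chosen after the data were seen, which does not fully remove the choice since control pericytes were part of it. There the log2 fold change was 0.34 (SE 0.67) for Sdf2l1 and 0.76 (SE 0.43) for Hyou1, and that of Hspa5 was -0.14 (SE 0.20), against 0.55 (SE 0.15) in all mice. Atf6 (-1.86, SE 0.34), Dnajb9 (-1.84, SE 0.26), Ern1 (-1.78, SE 0.44) and Atf4 (-1.44, SE 0.27) were lower by at least 1 there too, and control pericytes held 0 UMIs of Trib3. In the CADASIL mice alone Sdf2l1 stood at 3.13 (SE 0.30).

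Both mural cell types were also set against each other, again as a description. Ppp1r15a (3.06, SE 0.14), Atf6 (1.24, SE 0.19) and Atf4 (1.23, SE 0.14) were higher in SMC than in pericytes by at least 1, beside 18.4% of all genes, and these 3 were so in the control mice alone too. Sdf2l1 (-3.24, SE 0.36), Pdia4 (-1.55, SE 0.19), Eif2ak3 (-1.50, SE 0.29) and Hyou1 (-1.39, SE 0.32) led the 8 members that were lower in SMC by at least 1, beside 13% of all genes (9.27% where an adjusted p under 0.05 was also required). In the control mice alone the values were -1.28 (SE 0.77) for Sdf2l1, -0.49 (SE 0.34) for Pdia4 and -0.90 (SE 0.46) for Hyou1, while that of Eif2ak3, -1.41 (SE 0.56), was about as large as in all mice. Against microglia, 15 members were lower in pericytes by at least 1 and none higher, beside 30.2% and 19.8% of all genes, led by Edem1 (-3.91, SE 0.18), Ppp1r15a (-3.33, SE 0.14), Atf6 (-3.02, SE 0.16) and Atf4 (-2.49, SE 0.13).

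**Figure D3:**
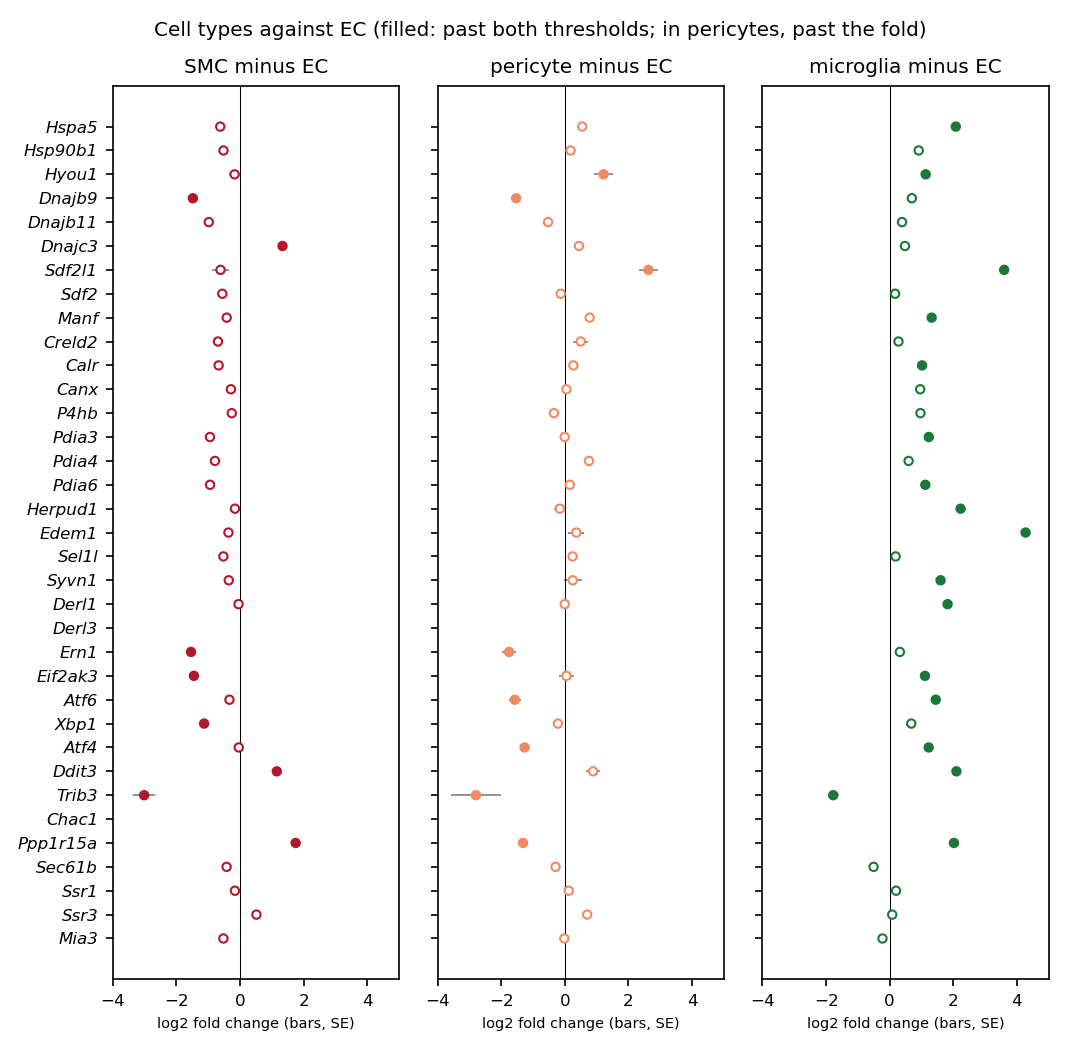
Log2 fold change (with SE) of the 33 tested members in SMC, pericytes and microglia against EC, with the mouse as a block; filled points passed both thresholds in SMC and microglia, and in pericytes, where the values are a description, they lie at least 1 from 0. In microglia 16 filled points lie to the right and 1 (Trib3) to the left, while the filled points of SMC and pericytes lie on both sides.

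Levels of immediate early genes, which rise when tissue is dissociated, differed between the types in the same preparation. Of 15 such genes, 14 were called lower in pericytes than in EC, beside 19.9% of all genes. Against EC, 7 were called higher in microglia and 6 in SMC, beside 22.7% and 15.7% of all genes. In control mice the 15 genes summed to 4113 ± 1810 CPM (n = 4) in pericytes, 15069 ± 2980 CPM (n = 5) in EC, 26978 ± 6098 CPM (n = 5) in microglia and 27127 ± 7165 CPM (n = 5) in SMC. Ppp1r15a, Atf4 and Ddit3 respond to stress of other kinds as well, and the part of tissue handling in their differences between cell types was not tested.

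In pericytes, 9 of the 10 lumenal chaperones had a higher mean level in CADASIL mice, as had all 6 lectin chaperones and disulfide isomerases, 5 of 6 degradation genes and 4 of 6 sensors and factors. These values belong to the contrast behind the choice of the list, so they are a description, and nothing is read from the background values beside them. Hspa5 was at 556, 576, 670, 698, 808 and 1506 CPM in the 6 CADASIL mice and at 358, 380, 386 and 462 CPM in the 4 control mice. The groups did not overlap, and the ratio of the means was 2.02. The highest value came from CADASIL 6 months mouse 2, whose sum held 23 cells, and without it the ratio was 1.67. Manf was at 146, 178, 230, 254, 365 and 413 CPM in CADASIL mice and at 72.9, 88.9, 122 and 163 CPM in control mice, so that 1 CADASIL mouse lay within the control range. The ratio of the means was 2.37 (log2 ratio 1.24). With a stricter gate, which left 5 mice, the log2 ratio was 1.98.

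Sdf2l1 was at 29.7, 51.1, 69.8, 92.5, 156 and 263 CPM in pericytes of CADASIL mice, which rested on 84 UMIs, and at 0, 8.08, 20.3 and 21.7 CPM in those of control mice, which rested on 5 UMIs. All CADASIL mice were above all control mice, but the gene did not pass the filter of the fit, and the ratio of the means, 8.81, rests on few molecules. Mia3 (TANGO1), which loads large cargo such as collagen for export, was at 110 to 220 CPM in CADASIL mice and 48.6 to 80.8 CPM in control mice. The disulfide isomerase Pdia6 was at 135 to 497 and 71.1 to 121 CPM, Herpud1 at 62.1 to 190 and 30.5 to 60.7 CPM, and Derl1, a channel component of ER-associated degradation, at 52.3 to 81.8 and 32.6 to 48.6 CPM. None of these genes overlapped between the genotypes among the 10 mice. The control mouse with 18 pericytes had 501 CPM of Hspa5, 114 of Manf and 22.8 of Sdf2l1, below all CADASIL mice for each, but its levels of Pdia6 (8 UMIs) and Mia3 (6 UMIs, 137 CPM) lay within the CADASIL range.

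**Figure D4:**
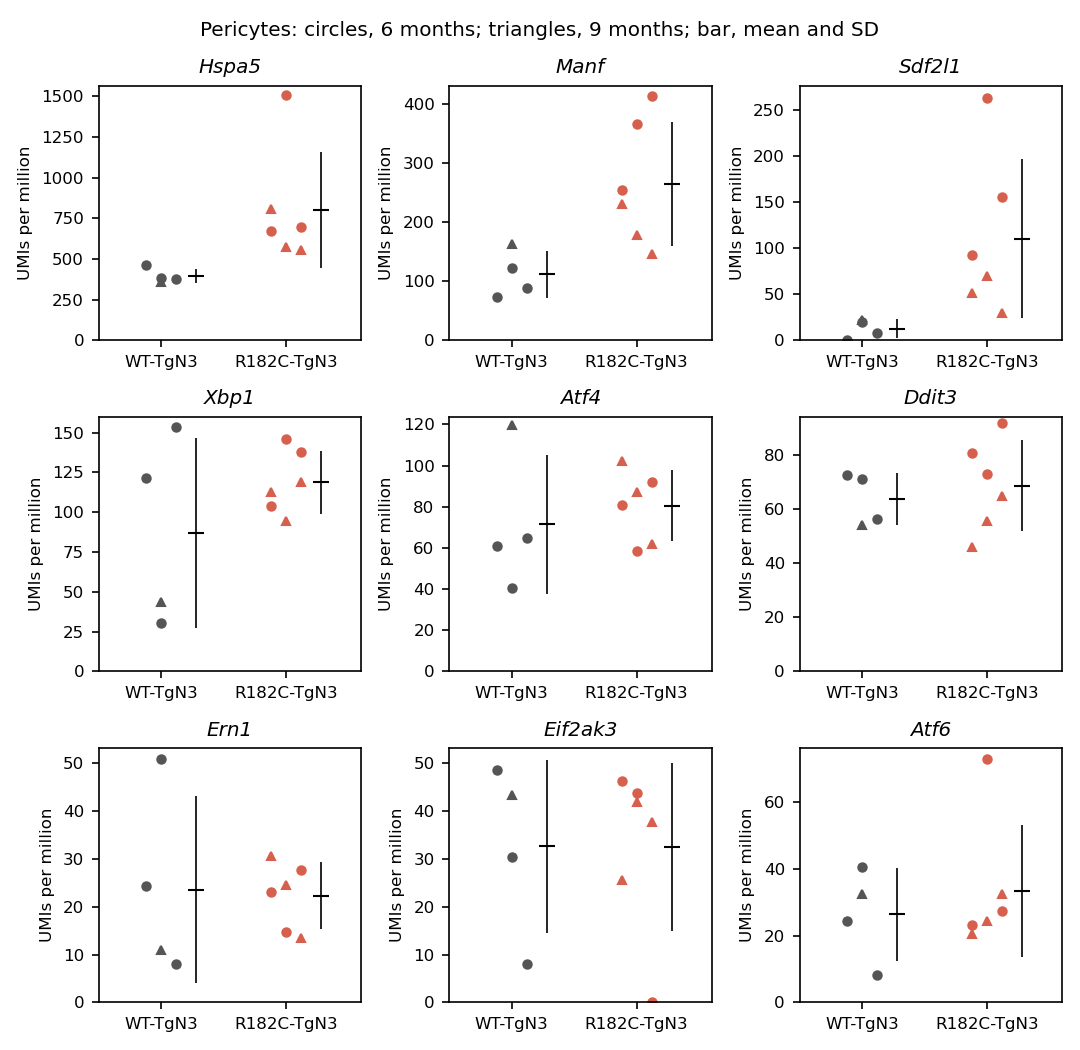
Pericyte levels of 9 members in each mouse (CPM, linear axes from 0; circles, 6 months; triangles, 9 months), with the mean and SD beside the points. Hspa5 and Sdf2l1 were higher in every CADASIL mouse than in every control mouse, whereas Manf, Xbp1, Atf4, Ddit3, Ern1, Eif2ak3 and Atf6 overlapped between the genotypes.

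Among the 35 members, 30 had a higher mean in pericytes of CADASIL mice. At a mean of at least 50 CPM over all 10 mice stood 26 members, of which 25 had a higher CADASIL mean (49.5% of the 3651 genes at that level did) and 6 did not overlap (0.794% of those genes were above in all CADASIL mice). Of the 26 members, 5 had a control mean under 50 CPM and reached that level only through the CADASIL mice, among them 3 of the 6 without overlap, Sdf2l1, Herpud1 and Derl1, so these counts and the median of these members are no support for a difference. The number without overlap was 4 with cells of at least 1000 genes, 4 with up to 20% mitochondrial UMIs and 3 without the 5% of cells with most UMIs. The median log2 ratio of the means was 0.57 for these members and -0.0048 for all these genes. In the fit, 16 members passed the filter, all with positive log2 fold changes from 0.19 (Ssr3) to 1.20 (Pdia4), beside 48.2% of all 2016 genes. A gene can pass this filter too through the CADASIL mice alone, so this count is no support for a difference either. Of the 2016 genes, 0.0496%, NOTCH3 alone, were called. The sensors and factors had closer means. For Xbp1 this depended on single mice, as its fitted log2 fold change ranged from 0.09 to 0.86 with each mouse left out. Atf4 was at 80.5 ± 17.2 CPM (n = 6) in CADASIL mice and 71.4 ± 33.7 CPM (n = 4) in control mice, Ddit3 at 68.8 ± 16.7 and 63.7 ± 9.63, Ern1 at 22.3 ± 6.92 and 23.5 ± 19.5, Eif2ak3 at 32.6 ± 17.5 and 32.6 ± 18.1, Atf6 at 33.5 ± 19.8 and 26.4 ± 13.9, and Xbp1 at 119 ± 19.9 and 87.2 ± 59.8. Trib3 was at 2 UMIs, Derl3 at 5 UMIs and Chac1 at 0 UMIs in all pericytes, and a count of 0 allows up to 1.98 CPM over the 10 sums, for counting error only. The difference between the chaperones and the factors was not tested.

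The same mice were also compared within batches, which gives no support independent of the choice of the list. In the 3 batches that held pericyte sums of both genotypes, with 1 or 2 mice of each, the ratio of the CADASIL to the control mean was 1.84 to 2.57 for Hspa5, 1.25 to 4.65 for Manf and 2.78 to 19.3 for Sdf2l1, the highest against a single control mouse at 8.08 CPM. When the cells with shared barcodes were left out, the log2 ratio of the means was 0.99 for Hspa5 (1.02 with them) and 1.20 for Manf (1.24 with them). Markers of other cells in the pericyte sums were compared too. The 8 SMC markers summed to 585 ± 273 CPM (n = 6) in CADASIL and 838 ± 67.6 CPM (n = 4) in control mice, with Myh11 as the most abundant, 3 to 7 of the 8 detected in CADASIL and 5 to 7 in control mice. The 8 microglial markers summed to 510 ± 219 and 542 ± 79.3 CPM, with 4 to 8 and 5 to 8 detected. They reached 17933 and 16911 CPM in microglia, the cell type with the highest Hspa5 level. Immediate early genes summed to 3170 ± 3090 CPM in CADASIL and 4113 ± 1810 CPM in control mice. CADASIL 9 months mouse 1 was at 9326 CPM, and without it the CADASIL mean was 1938 CPM. The 6 oligodendrocyte markers summed to 9.02 ± 9.78 CPM in CADASIL and 55.7 ± 45.2 CPM in control mice, with 0 to 2 and 1 to 2 detected. Control 6 months mouse 3 was at 121 CPM, and without it the control mean was 33.8 CPM. The 6 markers of neutrophils and monocytes summed to 4.32 ± 3.91 and 29.4 ± 48.7 CPM, with 0 to 1 and 0 to 2 detected and Csf3r and Plac8 as the most abundant. The latter mean rests on control 6 months mouse 2 at 102 CPM, without which it was 5.39 CPM. The mean SMC and oligodendrocyte marker levels were lower in CADASIL mice, and the part of these cells and of the immediate early genes in the result was not tested.

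In SMC, where the transgene is also expressed, no member was called between the genotypes. Of 8096 genes, 0.0124% were called, NOTCH3 alone, and of the 29 members tested none had an unadjusted p under 0.05 in edgeR or in DESeq2 (223 of all genes had in edgeR and 128 in DESeq2). Hspa5 was at 193 ± 70.5 CPM (n = 6) in CADASIL and 204 ± 59.9 CPM (n = 5) in control mice, and the 95% interval of its log2 fold change ran from -0.46 to 0.36. Manf was at 59.4 ± 12.3 and 51.8 ± 10.2 CPM, with an interval from -0.10 to 0.52. Sdf2l1 ranged from 3.11 to 7.75 CPM in CADASIL mice and from 0.926 to 6.43 CPM in control mice and did not pass the filter. For Xbp1 the interval ran from -0.50 to 0.30, for Atf4 from -0.59 to 0.28, for Ddit3 from -0.30 to 0.44, for Ern1 from -0.73 to 0.21 and for Atf6 from -0.37 to 0.27. Eif2ak3 was at 9.79 ± 3.69 and 8.16 ± 4.63 CPM and was not tested. The median log2 fold change was 0.0019 for the members and -0.0022 for all genes, and 15 of 29 members were positive.

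EC and microglia, whose sums were far deeper, showed no called gene between the genotypes (0% of 12852 and 0% of 10844 genes). In EC none of 34 members had an unadjusted p under 0.05 in edgeR or DESeq2 (229 and 219 of all genes had), and their log2 fold changes lay between -0.16 and 0.11. Hspa5 was at 350 ± 53.7 CPM (n = 6) and 363 ± 59.0 CPM (n = 5), with an interval from -0.25 to 0.24, and Manf was at 90.8 ± 10.6 and 87.4 ± 8.86 CPM, with an interval from -0.13 to 0.33. The intervals were from -0.27 to 0.33 for Sdf2l1 and from -0.28 to 0.06 for Eif2ak3. In microglia none of 33 members had an unadjusted p under 0.05 by either tool (132 and 108 of all genes had), and 24 of 33 were positive, with a median of 0.08 beside 0.01 for all genes. Hspa5 was at 1291 ± 481 and 1345 ± 471 CPM with an interval from -0.51 to 0.47, Manf from -0.14 to 0.56 and Sdf2l1 from -0.10 to 0.46. The paper excluded a control sample from its microglial analysis because its microglia were highly polarized, whereas all 5 control mice were kept here. With each mouse left out in turn, 0 genes were called between the genotypes in microglia. A log2 fold change of 1 for Hspa5 lay above the interval in SMC, EC and microglia.

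**Figure D5:**
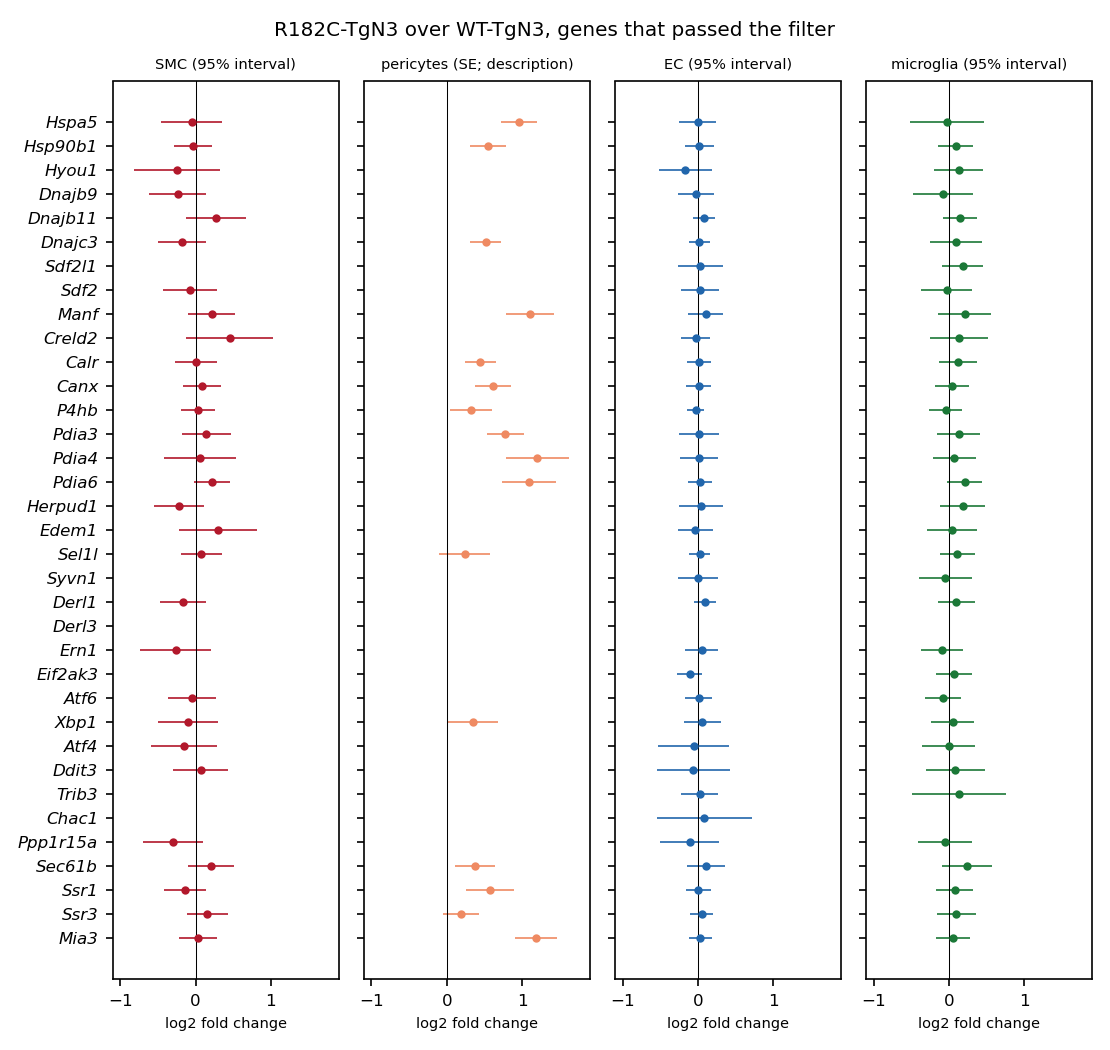
Log2 fold change of CADASIL over control mice for the members that passed the filter in each cell type; bars are 95% intervals in SMC, EC and microglia and SE in pericytes, where the values are a description. The pericyte points all lie to the right of 0 (48.2% of all 2016 genes of that fit do), and the bars of all SMC, EC and microglia members cross 0.

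Genotype differences at 6 and at 9 months were compared in SMC, EC and microglia, since the pericytes of control mice at 9 months came from 1 mouse only. No member was called in edgeR in any of the 3 types, and 1 of all members, Dnajb9 in SMC (unadjusted p = 0.0199, edgeR fit over 8887 genes), was under 0.05 without adjustment. At these ages 0% of genes were called in SMC and microglia and 0.0074% in EC (200, 273 and 355 genes had an unadjusted p under 0.05 in SMC, microglia and EC). The genotype effect in SMC was also set against that in EC, and the effect in microglia against that in EC. Neither comparison called any of 13008 genes (0% in each), and 485 and 348 genes were under 0.05 without adjustment. Among the 33 members Derl1 alone, in SMC against EC, was under 0.05 without adjustment (unadjusted p = 0.0476, edgeR fit over all genes).

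Genes of the same pathways outside the 35 members were examined from lists of other folding factors, degradation factors, ATF4 targets, signalling factors, and translocon and export factors. None of the genes tested from these lists was called between the genotypes in SMC (131 tested), EC (143) or microglia (139), nor was any cytosolic heat shock gene, mitochondrial chaperone or immediate early gene. In pericytes at a mean of at least 50 CPM, 12 of 17 other folding factors and 8 of 10 other degradation factors had a higher CADASIL mean, with median log2 ratios of 0.17 and 0.15, beside 49.5% of all genes at that level. The CADASIL mean was higher for 4 of 8 ATF4 targets with a median of 0.01, and for 4 of 8 signalling factors with a median of -0.03. Of 33 other translocon and export genes 20 were higher, with a median of 0.04. Among all the lists outside the members, only Rpn2, a subunit of oligosaccharyltransferase, did not overlap. Beside it, 0.794% of all genes at that level were above in all CADASIL mice, so nothing is read from this gene. Cytosolic heat shock genes, which answer to misfolded protein outside the ER, were higher in 7 of 13 with a median of 0.06, mitochondrial chaperones in 3 of 6 with a median of 0.07, and immediate early genes in 1 of 12 with a median of -0.38.

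Between cell types, ATF4 targets were called in both directions. In microglia against EC, 15 of 32 were called higher and 6 lower, beside 22.7% and 22% of all genes, among them Phgdh (5.54) and Psat1 (3.57) of serine synthesis and the stress factors Nupr1 (3.96) and Atf3 (2.28) on the one side, and the amino acid transporters Slc7a1 (-2.37) and Slc7a5 (-1.92) on the other. In SMC against EC, 12 were called higher and 5 lower, beside 15.7% and 19.5% of all genes, with Nupr1 at 5.55, Gdf15 at 5.05 and Slc7a5 at -4.42. In pericytes against EC, 7 were called in each direction, beside 12.5% higher and 19.9% lower of all genes. Among other folding factors, Serpinh1, the chaperone of collagen, was higher in pericytes (1.23) and far lower in microglia (-6.43) than in EC, and Kdelr3, a retrieval receptor for ER residents, was higher in pericytes (4.18) and SMC (2.80).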

How the data were processed

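UMI counts per gene and cell were deposited per library by the authors, who aligned the 10x reads to mm10 with human NOTCH3 added, and the submitters' processing notes name Cell Ranger 7.0.0. Whether intronic reads were counted is not given in the sources used here. The members, gene lists and tests were chosen with earlier results of these data known.

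Barcodes under 500 detected genes or over 10% mitochondrial UMIs were removed. A cell was assigned to a type with at least 4 of its 8 markers, at most 2 of any other class and a margin of 2; between SMC and pericytes only the margin was required. No doublet caller was run, and the 5% of cells with most UMIs were left out as an alternative. Counts were summed per mouse and type (at least 20 cells) and expressed per 1000000 UMIs. Summed counts were tested with edgeR 4.0.16 (R 4.3.3; filterByExpr, TMM, quasi-likelihood test, ribosomal, mitochondrial, Gm and Rik genes left out) and Benjamini-Hochberg adjustment over all genes, at an adjusted p of 0.05. The libraries come from separate mice by the labels, and p-values measure the spread between them. DESeq2 1.42.0 was an alternative. The model code was tested on simulated data. Values are given for Hspa5, Manf, Sdf2l1, Xbp1, Atf4, Ddit3, Ern1, Eif2ak3 and Atf6 and for the 4 largest called members in each direction of each contrast between cell types. Members in contrasts with pericytes are listed by fold change alone, a choice made after seeing the data. Other members and genes were named after their values were seen. Alternatives covered normalization, filters, covariates, gate, cells and each mouse in turn. The fits in 1 genotype, without shared barcodes and with a looser gate were chosen after seeing the data.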

Additional observations from a re-analysis of the deposited data

Results flagged for a closer look

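A total of 7 of 72 groups of mice held a value far from the others, where chance flags about 1 in 20. In SMC of CADASIL mice, Atf4 was at 201 CPM in 9 months mouse 1 and Eif2ak3 at 16.9 CPM in 6 months mouse 2. In pericytes, CADASIL 6 months mouse 2 had 1506 CPM of Hspa5 and 73.1 CPM of Atf6. In EC, Ern1 was at 49.1 CPM in control 6 months mouse 2, the lowest of the 5 control mice. In microglia, CADASIL 9 months mouse 1 had 2259 CPM of Hspa5 and 86.6 CPM of Ern1.

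Outside the members, Fabp4, a fatty acid binding protein, differed between ages in its genotype effect in EC. Its log2 fold change of CADASIL over control mice was 1.45 at 6 months and -3.01 at 9 months, a difference of -4.47 (SE 0.52, edgeR adjusted p = 0.0262). With each mouse left out, 0 to 28 genes were called in this comparison, and age and batch cannot be told apart.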

How the results depend on the processing

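No called result changed sign under the alternatives run. Of 2594 fold changes under the alternatives, 128 had the other sign, 100 of them with a mouse left out. Among them were Hspa5 (-0.14 in control mice alone, 0.55 as reported) and Eif2ak3 (-0.28, 0.05 as reported) in pericytes against EC, neither called. Hspa5 between genotypes in SMC ranged from -0.19 to 0.12 with each mouse left out. NOTCH3 in SMC was called in all of them. In pericytes, 1 gene was called between genotypes, 29 without a filter, 3 with batch and 2 with age as a covariate, and 1 to 3 when each mouse was left out. With the replicate number as a block 3 were called, but the labels do not say that equal numbers pair the mice. Same-numbered mice of an age shared a batch, so this block also takes up batch. Those mice correlated at -0.03 to -0.02 in pericytes (3 pairs), and at -0.25 to -0.08 in EC, -0.20 to 0.03 in SMC and -0.02 to 0.25 in microglia (5 pairs each). So few pairs cannot show whether the numbers pair the mice. The count of 6 members without overlap in pericytes (0.794% of all genes) was 3 without the 5% of cells with most UMIs (0.712%), 4 at 1000 genes or more (0.794%), 4 at up to 20% mitochondrial UMIs (0.74%), 7 with a looser gate (0.767%) and 6 to 9 when each mouse was left out (0.959% to 1.73%). With a stricter gate, which left 5 mice, it was 9, beside 13.1% of all genes, and the log2 ratio of Manf was 1.98 (1.24 as reported). With fewer mice more genes do not overlap, so higher counts there are no gain.

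For the difference between ages, no filter gave 9 called genes in SMC and 26 in microglia (0 in each as reported). Leaving out each mouse gave 0 to 28 in EC (1 as reported; 28 without control 9 months mouse 1) and 0 to 3 in microglia. The genotype effect in microglia against EC called 1 gene without a filter. Between cell types, members called lower in SMC than in EC numbered 8 with a stricter gate and 8 in control mice alone (5 as reported). For this and the following counts, the shares of all genes called in the same alternative fits are not given. No excess of members over other genes is read from them. In contrasts with pericytes, whose levels were behind the choice of the list, only log2 fold changes are given, as a description without a p. The members higher in pericytes than in EC by at least 1 in all mice were Sdf2l1 and Hyou1. Sdf2l1 was at 0.34 (SE 0.67) in control mice alone and 3.13 (SE 0.30) in CADASIL mice alone. Hyou1 was at 0.76 (SE 0.43) and 1.48 (SE 0.34). These fits held 4 control and 6 CADASIL pericyte sums. In SMC against pericytes, Eif2ak3 (-1.41) and Sdf2l1 (-1.28) were lower by at least 1 in control mice alone. No test or difference between genotypes is read from these values. Members called lower in microglia than in EC numbered 2 without a filter (1 as reported), and 1 member was called higher in SMC than in microglia in control mice alone (0 as reported). The causes were not tested.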
